A study of Mus musculus with 10 samples.

Results

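Apoa1, Apoa4, Apob, Apoc2, Apoc3, Mttp, Dgat1, Fabp1, Fabp2 and Cd36 are 10 genes with which the small intestine takes up dietary fat and packs it into chylomicrons. They were taken by gene name from the table of read counts, in which they are 10 of 54532 genes, and 9 of them were among the 15703 genes with enough counts to be tested. Cells of the small intestinal epithelium of 5 litter-matched 10-week-old Gucy2c-GFP mice of the outbred CD1/ICR stock were sorted by GFP into GUCY2C-hi and GUCY2C-med cells, with 20000 cells per library and 10 libraries in all. In these mice the Gucy2c promoter drives GFP from a transgene, every animal of both groups carries it, and the groups were set by the GFP gate alone. The labels call the second group both Medium and Lo, and the numbers 2, 7, 12, 14 and 15 in the labels were taken as those of the mice, each of which gave 1 library per group. Libraries held 13090212 to 13520800 counts in GUCY2C-hi and 10903958 to 15307932 in GUCY2C-med. Each library is RNA of many pooled cells, so that fewer cells of a type and less RNA per cell cannot be told apart.

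Absorptive enterocytes of the small intestine take up fatty acids and monoacylglycerol at the brush border, carry them through the cytosol on binding proteins and join them again into triglyceride at the endoplasmic reticulum. The triglyceride is loaded onto apolipoprotein B, and the particle gains further apolipoproteins on its surface before it leaves the cell for the lymph as a chylomicron. Some of these genes are known to be among the most abundant messages of the absorptive villus cell. Enteroendocrine cells of the same epithelium, by contrast, sense nutrients and release hormones.

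The 9 genes that could be measured were lower in GUCY2C-hi than in GUCY2C-med cells in every mouse, and for each of the 9 all 5 GUCY2C-hi libraries lay below all 5 GUCY2C-med libraries. That pattern was found in 13.2% of all genes tested. Their median log2 fold change, GUCY2C-hi minus GUCY2C-med, was -2.23, where the median over all genes tested was 0.09. Counts on the 10 genes made up 6.22, 4.10, 5.13, 4.72 and 4.86% of all counts in the GUCY2C-med libraries of mice 2, 7, 12, 14 and 15. In the GUCY2C-hi libraries, in the same order, the share was 0.321, 0.249, 2.49, 0.226 and 3.13%. The GUCY2C-hi libraries of mice 12 and 15 thus stood well above the other 3, though below every GUCY2C-med library. By edgeR's quasi-likelihood test at a Benjamini-Hochberg adjusted p under 0.01, only Apob passed (adjusted p = 0.00232), which is 1 of 9 beside the 8.79% of all genes called lower, and is close to that share. All 9 had an unadjusted p under 0.05, but the share of all genes under it was not counted, so this number has no background. None of the 9 was higher in GUCY2C-hi, at the adjusted threshold, at an unadjusted p under 0.05, or by limma-voom or DESeq2.

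**Figure D1:**
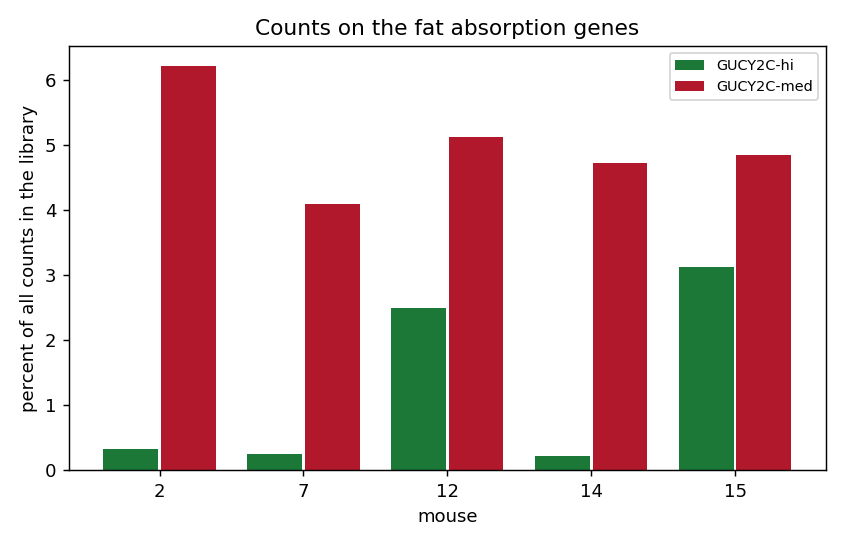
Percent of all counts in a library that fell on the 10 genes (vertical axis, linear from 0) for each mouse (horizontal axis), with 1 bar per library in GUCY2C-hi (green) and GUCY2C-med (red). The GUCY2C-hi bars of mice 12 and 15 reach 2.49 and 3.13%, those of the other mice at most 0.321%, and every GUCY2C-med bar stands above all of them.

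A promoter sequence was available for 8 of the 10 genes, from RefSeq on GRCm38.p6, and 7 of them were used, since that of Cd36 belongs to a start 53063 bases inside the gene. The 100 bases before the RefSeq gene start are shown, in the direction of transcription, for both genes with the letters TATAAA in the window searched and for the 2 most abundant genes per kb of length, in which none of the searched letters was found. Capitals mark matches, on either strand, to TATAAA (a box of core promoters), to AGGTCA (a core site of nuclear receptors) or to TTTATG (a site of caudal homeobox factors such as Cdx).
Apob (chr12:7977529-7977628, plus strand): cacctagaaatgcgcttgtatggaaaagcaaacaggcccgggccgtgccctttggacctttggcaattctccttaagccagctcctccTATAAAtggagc
Fabp1 (chr6:71199779-71199878, plus strand): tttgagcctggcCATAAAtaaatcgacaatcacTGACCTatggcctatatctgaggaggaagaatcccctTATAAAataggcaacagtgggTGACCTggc
Apoa1 (chr9:46228530-46228629, plus strand): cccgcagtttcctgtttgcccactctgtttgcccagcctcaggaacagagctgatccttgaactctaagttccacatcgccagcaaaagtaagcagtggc
Fabp2 (chr3:122894972-122895071, plus strand): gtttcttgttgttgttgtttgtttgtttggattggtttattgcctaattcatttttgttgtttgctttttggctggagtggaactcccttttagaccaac
The first base of TATAAA lay 30 bases before the RefSeq gene start in Fabp1 and 12 before it in Apob. Annotated starts differ, and the count table starts Apob 19 bases further in, which puts TATAAA 31 bases before its start. It starts Fabp1 52 and Apoa1 50 bases further upstream. By that start, TATAAA of Fabp1 begins 22 bases inside the gene. The search covered the 250 bases before the start of each promoter in the RefSeq table, which for Apob lies 48 bases inside the gene. There TATAAA was found in 12.4% of all 32851 promoters and in 2 of these 7. AGGTCA was found in 4607 of the 32851 and in Apoc2 and Fabp1, TTTATG in 10.8% and in Fabp1, and GATAAG, a site of Gata factors, in 6.55% and in Apob. CAAAGTCCA, a site of Hnf4, held by 0.384% of all promoters, was in none of the 7. Searches were by letters on both strands, and a match is not a measured binding site.

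Uptake and binding came first in the path of a fatty acid. Cd36, on chromosome 5 (17781690-17888801), encodes a membrane receptor for long-chain fatty acids. In mice 2, 7, 12, 14 and 15, the order used from here on, it was at 29.0, 27.4, 114, 30.8 and 225 cpm (read counts scaled to library size with TMM factors) in GUCY2C-hi. The GUCY2C-med libraries held 405, 230, 243, 294 and 412 cpm. Mice 12 and 15 were the high ones in GUCY2C-hi, and that of mouse 15 came close to the lowest GUCY2C-med library, mouse 7, without reaching it. The log2 fold change was -1.90 (SE 0.59, edgeR adjusted p = 0.0239).

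Fabp1, the fatty acid binding protein shared by liver and gut (chromosome 6, 71199827-71205023), was at 160, 158, 2221, 120 and 1942 cpm in GUCY2C-hi. Its GUCY2C-med levels were 3182, 4274, 5209, 4535 and 4360 cpm. The GUCY2C-hi libraries therefore fell into 3 low and 2 high ones, 18.5-fold apart from lowest to highest, whereas GUCY2C-med libraries spanned 1.64-fold. The log2 fold change was -2.23 (SE 0.82, edgeR adjusted p = 0.0492). Fabp2, the intestinal fatty acid binding protein (chromosome 3, 122895072-122899506), was at 579, 443, 7622, 415 and 6568 cpm in GUCY2C-hi. The GUCY2C-med libraries were at 15305, 10188, 20039, 17145 and 14378 cpm. The same pair of mice was high in GUCY2C-hi and no values overlapped. With a log2 fold change of -2.30 (SE 0.85), Fabp2 had the highest adjusted p of the 9 genes, 0.0507 by edgeR. An antisense gene, 4933405D12Rik, spans Fabp2 with 3 to 176 counts per library.

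Dgat1 encodes the acyltransferase that adds the last fatty acid to make triglyceride (chromosome 15, 76502015-76511953). It was at 129, 63.9, 440, 117 and 565 cpm in GUCY2C-hi. In GUCY2C-med it was at 1136, 876, 992, 1226 and 1332 cpm. GUCY2C-med levels spanned 1.52-fold, and the GUCY2C-hi libraries of mice 12 and 15 lay between the 3 low libraries and all of GUCY2C-med. Its log2 fold change was -2.08 (SE 0.54, edgeR adjusted p = 0.0107), just above the threshold.

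Chylomicron assembly rests on Apob and Mttp. Apob, the structural protein of the particle (chromosome 12, 7977648-8016835), was at 63.9, 71.9, 142, 63.6 and 131 cpm in GUCY2C-hi. The GUCY2C-med libraries held 922, 301, 189, 322 and 596 cpm. In contrast to Fabp1 or Fabp2, GUCY2C-hi levels of Apob spanned 2.23-fold, less than the 4.88-fold span within GUCY2C-med, and the libraries of mouse 12 came nearest to each other. Apob fell with a log2 fold change of -2.30 (SE 0.44, edgeR adjusted p = 0.00232), and it passed with each of the 10 libraries left out in turn. With the mouse as a block in edgeR the adjusted p was 0.0127, above the threshold and the highest over its 21 alternatives, in which it ranged from 2.77e-06. Mttp, the microsomal transfer protein that loads lipid onto apolipoprotein B (chromosome 3, 138089854-138144968), was at 129, 97.4, 743, 117 and 866 cpm in GUCY2C-hi. Its GUCY2C-med levels were 2231, 1696, 1919, 2301 and 2811 cpm. The split of the GUCY2C-hi libraries into 3 and 2 was that of Fabp1. The log2 fold change of Mttp was -2.49 (SE 0.64), and the edgeR adjusted p of 0.0101 missed the threshold narrowly. Mttp and Dgat1 passed with the mouse as a block in edgeR, with adjusted p = 0.00901 and 0.00957, and over all alternatives their adjusted p ranged from 0.000157 to 0.0316 and from 0.000198 to 0.0353. Trmt10a and the antisense gene Gm43691 overlap Mttp, with 17 to 86 and 0 to 7 counts.

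Of the apolipoproteins on the particle's surface, Apoa1, Apoc3 and Apoa4 are neighbours on chromosome 9. Apoa1 (46228580-46230466), also the main protein of high-density lipoprotein, was at 1424, 939, 11981, 1190 and 13207 cpm in GUCY2C-hi. It was at 31064, 20518, 24184, 22356 and 27497 cpm in GUCY2C-med. Mice 12 and 15 again were high in GUCY2C-hi, but stayed below the lowest GUCY2C-med library. The log2 fold change was -2.13 (SE 0.77, edgeR adjusted p = 0.0466). Apoa4 (46240696-46243459), an intestinal apolipoprotein made with fat absorption, was at 351, 131, 1559, 152 and 2366 cpm in GUCY2C-hi. Its GUCY2C-med levels were 8283, 4949, 3081, 3649 and 6988 cpm. Groups did not overlap, and the gap was smallest between the GUCY2C-hi library of mouse 15 and the GUCY2C-med library of mouse 12. Its log2 fold change of -2.56 (SE 0.79, edgeR adjusted p = 0.0232) was the most negative of the 9. Gm47528, on the other strand, overlaps Apoa4 with 1 to 215 counts, and whether reads were counted by strand is not given in the sources used here.

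Apoc3 (46232933-46235636), known as an inhibitor of lipoprotein lipase, was at 47.3, 50.8, 351, 69.2 and 441 cpm in GUCY2C-hi. In GUCY2C-med it was at 885, 483, 702, 857 and 750 cpm. The GUCY2C-hi library of mouse 15 came close to the GUCY2C-med library of mouse 7, its nearest neighbour. The log2 fold change was -1.94 (SE 0.63, edgeR adjusted p = 0.0297). Apoc2, which activates lipoprotein lipase (chromosome 7, 19671579-19677941), had 0 counts in all 10 libraries and was not tested. A gene annotated on the same strand, Gm44805 (19671584-19681423), covers nearly all of it and was at 0 counts in all 10 libraries as well, so no level of Apoc2 can be read from this table.

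**Figure D2:**
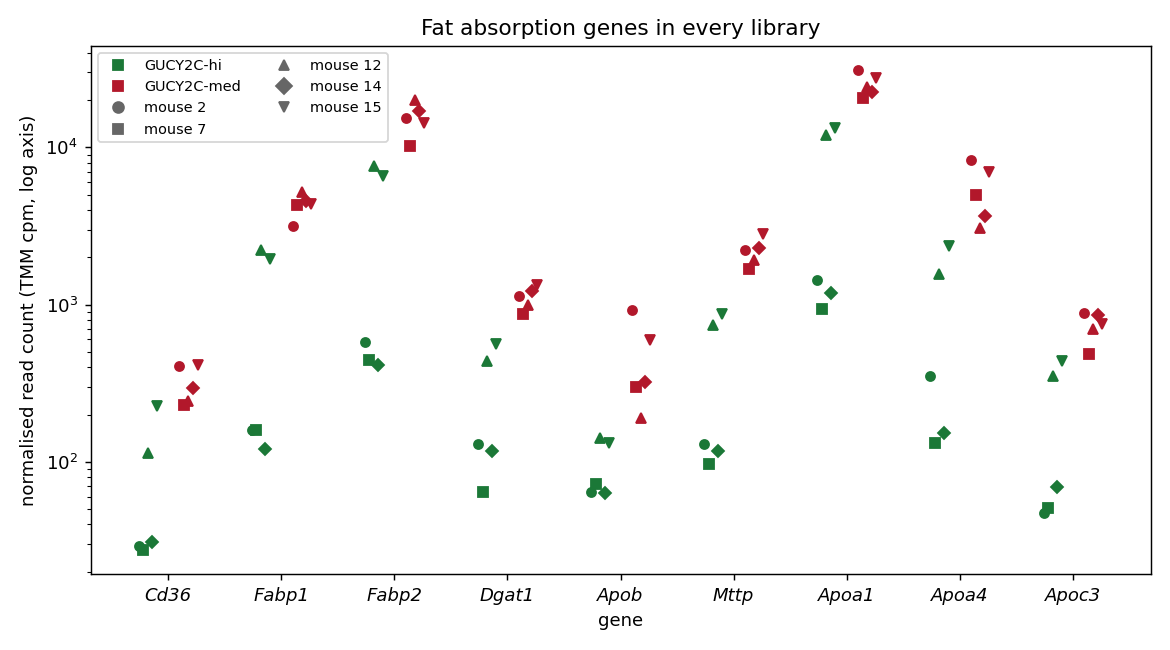
Normalised read counts (TMM cpm, log axis) of the 9 genes with counts, each point 1 library, GUCY2C-hi in green and GUCY2C-med in red, with the shape giving the mouse. For each gene all green points lie below all red ones, and for every gene except Apob the GUCY2C-hi points of mice 12 and 15 sit far above those of the other 3 mice.

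The genes moved alike across the mice. Within a mouse, the GUCY2C-hi level was 3.78 to 11.4% of the GUCY2C-med level in mouse 2, 2.65 to 23.9% in mouse 7 and 2.42 to 19.7% in mouse 14. In mice 12 and 15 it was 38.0 to 75.2% and 22.0 to 58.7%. Apob was the highest of the 9 genes in mice 7, 12 and 14 and the lowest in mouse 15. Without Apob the highest value was 11.9% in mouse 7 (Cd36) and 10.5% in mouse 14 (Cd36), so that the other 8 genes separated mice 2, 7 and 14 from mice 12 and 15 with no overlap. As log2 differences within a mouse, the median of the 9 genes was -4.22, -4.12, -1.09, -4.23 and -1.17. The root mean square distance of Apob from that median was 1.37 on the log2 scale, whereas Apoa1 was nearest with 0.19 and the others lay at 0.27 to 0.68.

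**Figure D3:**
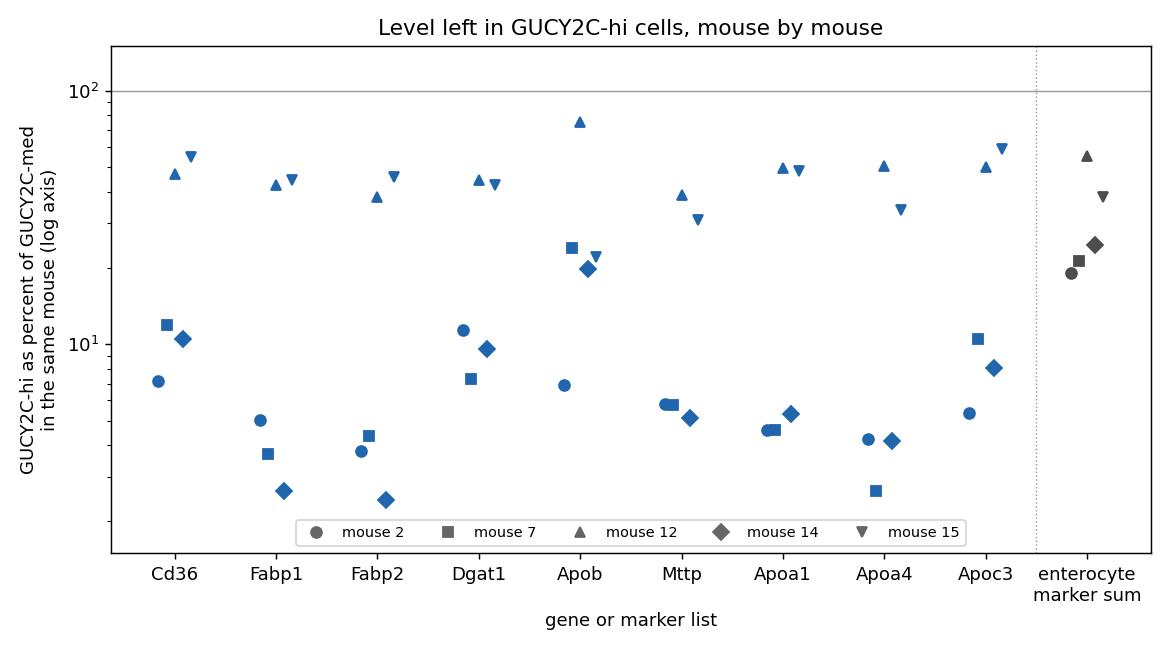
GUCY2C-hi level as a percent of the GUCY2C-med level in the same mouse (log axis, line at equal levels) for the 9 genes in blue and for the summed enterocyte markers in grey, with the shape giving the mouse. In mice 2, 7 and 14 the genes other than Apob lie at 2.42 to 11.9%, below the marker sum at 19.0 to 24.6%, and in mice 12 and 15 they lie at 38.0 to 50.6% and 30.8 to 58.7%, beside marker sums at 55.1 and 38.2%.

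Markers of other cells moved between the same libraries. Summed levels of 20 enterocyte markers were 5041 to 11509 cpm in GUCY2C-hi and 20502 to 30142 in GUCY2C-med, which put GUCY2C-hi at 19.0, 21.2, 55.1, 24.6 and 38.2% of GUCY2C-med in the same mouse. The 10 genes together were at 4.59, 4.56, 44.5, 4.32 and 44.5%. Thus, mice 12 and 15 were high by both sums, and in the other 3 mice the fat absorption genes were at a lower percent than the markers. Of the 20 enterocyte markers 7 passed as lower and none as higher, beside 8.79% and 13.9% of all genes tested. Their median log2 fold change was -1.96. All 18 enteroendocrine markers rose, beside 13.9% of all genes tested. Their sum in GUCY2C-hi was 143019, 138534, 100864, 161641 and 40966 cpm, lowest in mice 12 and 15. In GUCY2C-med it was 144 to 373 cpm. The liver also makes most of these apolipoproteins, and 6 of 9 hepatocyte markers tested rose in GUCY2C-hi, beside 13.9% of all genes tested. The 6 were Alb, F2, Serpina1a, Serpina1b, Tat and Hpx, at 1.79 to 34.9 cpm on average in GUCY2C-hi. The hepatocyte list summed to 168 to 258 cpm there and to 9.87 to 71.9 cpm in GUCY2C-med. Ttr had the largest mean of that list in both groups, 102 beside 41.2 cpm, and did not pass (edgeR adjusted p = 0.0545). Apoh and Cyp2e1 did not pass either, with log2 fold changes of -0.15 and 0.0035, and Ahsg, Fgb and Fgg had 0 counts in every GUCY2C-hi library. Adipocytes also make Cd36, and their markers summed to 5.08 to 62.1 cpm in GUCY2C-hi and 54.6 to 135 in GUCY2C-med, nearly all of it Cidec, with Adipoq, Plin4, Lep and Cfd at 0 in all libraries. Macrophage markers summed to 20.8 to 111 cpm in GUCY2C-hi and 2.33 to 6.69 in GUCY2C-med, most of it C1qa (47.7 beside 0.69 cpm on average), the only 1 of 5 tested that rose, while Adgre1, Mrc1 and Cx3cr1 were near 0. Endothelial markers summed to 23.6 to 39.9 and 6.42 to 11.0 cpm. Of 4 tested, Prox1, Egfl7 and Pecam1 rose, beside 13.9% of all genes tested, and Lyve1 did not (2.80 beside 2.78 cpm on average). Prox1 and Egfl7 made up most of the GUCY2C-hi sum, while Cdh5, Kdr, Flt1, Emcn and Tek were near 0. Sums of goblet cell, stem and cycling, T cell and forebrain neuron markers overlapped between groups. Of the 10 stem and cycling markers 3 fell, namely Top2a, Ccnb1 and Mcm5, beside 8.79% of all genes tested. No marker of the other lists in this group passed. Forebrain neuron sums varied widely between libraries, from 35.6 to 1352 cpm in GUCY2C-hi and from 14.1 to 736 cpm in GUCY2C-med. The part that these cells took in the result was not tested.

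How many of the 9 genes passed depended on the tool. limma-voom called 7, all but Fabp1 and Fabp2 of the 9, and DESeq2 called 9. Of all 15703 genes tested, they called 1797 and 2235 lower. With the mouse as a block 2 of the 9 passed in edgeR and 9 in limma-voom, where 779 and 1382 of all genes were called lower. No alternative turned the direction of any gene. Of the 9 genes, 6 passed when the GUCY2C-hi library of mouse 15 was left out and 2 when that of mouse 12 was. All 9 passed in edgeR without both libraries of mice 12 and 15, but these mice were chosen for their high levels in GUCY2C-hi, so that a larger difference without them was fixed by the choice and supports nothing.

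Levels of different genes were compared per kb of gene length, and how evenly reads covered each transcript was not checked. By this measure Apoa1 was the most abundant of the 9 in GUCY2C-med with 20327 ± 3401 cpm per kb (SD, n = 5), followed by Fabp2 with 15970 ± 3764. Their ranges over libraries overlapped. Fabp1 came next with 7797 ± 1321, then Apoa4 with 2970 ± 1216 and Apoc3 with 725 ± 158, and none of these ranges overlapped its neighbours. Dgat1 (364 ± 59.5) and Mttp (353 ± 68.2) overlapped. Cd36 (88.3 ± 24.2) and Apob (33.4 ± 21.2), the lowest per kb, also overlapped at their edges.

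The genes most like this set were looked for among 9964 other genes with at least 5 cpm on average, by the root mean square distance over the 5 mice of a gene's log2 difference from the median difference of the 9. Slc6a20a, an amino acid transporter, was nearest at 0.14, and had log2 differences of -4.15, -4.06, -1.15, -3.94 and -1.15. Cyp4f14 (0.16), a fatty acid hydroxylase, and Ephx2 (0.17), the soluble epoxide hydrolase, followed. Tnfaip8l2 and the pseudogene Apol10c-ps were at 0.20 each. Of these 5, Cyp4f14 passed in edgeR (adjusted p = 0.00208, but 0.0107 with the mouse as a block, the highest of its 21 alternatives from 7.65e-07) and the others had adjusted p of 0.0142 to 0.0645.

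Of 58 other genes of fat absorption, 57 were tested, and 25 fell and 5 rose, where 8.79% of all genes tested fell and 13.9% rose. The median log2 fold change of the 57 was -1.19. All GUCY2C-hi libraries lay below all GUCY2C-med libraries in 31 of them and above in 5. Over all 15703 genes tested these numbers were 2070 and 2618. The number that fell was 4 to 14 when the GUCY2C-hi library of mouse 2, 7 or 14 or any GUCY2C-med library was left out, and 24 and 31 without the GUCY2C-hi library of mouse 12 or 15. Only Slc27a2, Lpin3, Cideb and Lipe of the 25 passed with every library left out in turn, and 15 of the 25 passed with the mouse as a block in edgeR. The adjusted p of the 8 named genes whose call the block changed ran from 0.000132 to 0.0939 over all alternatives. All 5 that rose did so with every library left out and with the block. Without TMM scaling, which moved the median of all genes by 0.29 on the log2 scale, 10 fell.

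Among 7 uptake and binding genes, 3 fell and 1 rose. Npc1l1, the sterol importer of the brush border, was at 86.7 ± 37.3 cpm in GUCY2C-hi and 293 ± 116 in GUCY2C-med (SD, n = 5 each), a log2 fold change of -1.76 (SE 0.36, edgeR adjusted p = 0.00342). Slc27a2, a fatty acid transport protein of the same family as Slc27a4, fell by 1.35 on the log2 scale (SE 0.22, edgeR adjusted p = 0.000835). Slc27a4 was at 179 ± 143 and 713 ± 207 cpm, and its edgeR adjusted p of 0.0102 was above the threshold, with 0.00942 under the mouse block. Scarb1, a receptor for high-density lipoprotein of the same family as Cd36, went the other way, from 46.3 ± 7.98 to 149 ± 67.4 cpm (log2 fold change 1.69, SE 0.28, edgeR adjusted p = 0.000980).

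Of 12 genes that activate fatty acids and join them again, 5 fell and 1 rose. Acsl5, an acyl-CoA synthetase, was at 210, 159, 1103, 190 and 1066 cpm in GUCY2C-hi. It was at 2478, 2965, 2905, 2774 and 3216 cpm in GUCY2C-med. The split between mice was thus that of Fabp1 and Mttp, and Acsl5 fell by 2.39 on the log2 scale (SE 0.58, edgeR adjusted p = 0.00761). Soat2, which esterifies cholesterol, fell by 2.11 (SE 0.45, edgeR adjusted p = 0.00427). Mogat2, which joins fatty acid to monoacylglycerol just before the step of Dgat1, was at 263 ± 282 and 1334 ± 214 cpm (edgeR adjusted p = 0.0231), and Dgat2 at 172 ± 168 and 639 ± 214 (adjusted p = 0.0316, or 0.00933 with the block). Gpat4, an acyltransferase of glycerol phosphate, rose from 37.6 ± 4.64 to 100 ± 26.4 cpm (log2 fold change 1.41, SE 0.19, edgeR adjusted p = 0.000318), while Gpat3 was at 203 ± 55.8 in GUCY2C-med and 47.9 ± 56.4 in GUCY2C-hi (adjusted p = 0.0504).

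In chylomicron assembly 5 of 11 genes tested fell and 2 rose. P4hb, the small subunit that partners Mttp, fell by 1.58 on the log2 scale (SE 0.37, edgeR adjusted p = 0.00654). Cideb and Pla2g12b, known to act in the lipidation of the particle, were lower too: Cideb fell by 1.58 and Pla2g12b fell by 1.23. Apobec1, the enzyme that edits the Apob message, fell by 0.92 (SE 0.23, edgeR adjusted p = 0.00844, or 0.0241 with the mouse as a block), although its groups overlapped. Apoa5, which lies on chromosome 9 (46268633-46271919) beyond Apoa4, was at 19.1, 20.7, 12.7, 50.8 and 5.35 cpm in GUCY2C-hi. It had 0 to 6 counts per library in GUCY2C-med. It thus differed in direction from its neighbours Apoa1, Apoc3 and Apoa4, with 1541 counts in GUCY2C-hi and 12 in GUCY2C-med over all libraries, a ratio of 108 after scaling (95% exact interval 61.8 to 210, for counting error only, edgeR adjusted p = 0.000128). Apom, another apolipoprotein, was at 7.48 ± 5.29 cpm in GUCY2C-hi and had at most 2 counts per library in GUCY2C-med, which puts it at least 30.7-fold higher against a floor of 3 counts per library (edgeR adjusted p = 0.000223).

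Export of the particle from the endoplasmic reticulum involves general coat proteins, and 4 of 9 such genes fell and none rose by edgeR. Sar1b, the coat GTPase needed for chylomicrons, fell by 1.19 on the log2 scale (SE 0.29, edgeR adjusted p = 0.00784, or 0.0107 with the block). Its paralog Sar1a was at 115 ± 19.7 in GUCY2C-hi and 84.8 ± 11.2 cpm in GUCY2C-med (adjusted p = 0.0472), the only one of the 9 export genes with an unadjusted p under 0.05 in that direction. Surf4, a cargo receptor, fell by 1.03 (SE 0.26, edgeR adjusted p = 0.00852, or 0.0130 with the block).

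Of 8 lipid droplet and lipolysis genes 3 fell and 1 rose. Plin2 and Plin3, droplet coat proteins, were lower, in that Plin2 fell by 1.03 on the log2 scale (adjusted p = 0.00546, or 0.0146 with the block) and Plin3 fell by 1.48. Lipe, the hormone-sensitive lipase, fell by 2.38 (SE 0.43, edgeR adjusted p = 0.00176). Mgll, which splits monoacylglycerol, rose from 3.89 ± 1.46 to 105 ± 38.6 cpm (log2 fold change 4.74, SE 0.38, edgeR adjusted p = 9.84e-06). Abcg5 fell by 1.91 (SE 0.48, edgeR adjusted p = 0.00953), and its partner in sterol export, Abcg8, was at 27.1 ± 25.9 in GUCY2C-hi and 132 ± 81.1 cpm in GUCY2C-med (adjusted p = 0.0156).

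Of 8 transcriptional regulators 4 fell, namely Hnf4g, Ppargc1a, Nr1h3 and Gata4, and none rose, at the adjusted threshold or at an unadjusted p under 0.05. With the mouse as a block Ppargc1a and Gata4 had an edgeR adjusted p of 0.0104 and 0.0236. Hnf4g, a nuclear receptor of the enterocyte, fell from 333 ± 69.3 to 74.8 ± 51.6 cpm (log2 fold change -2.16, SE 0.44, edgeR adjusted p = 0.00325). Its relative Hnf4a was at 135 ± 31.8 in GUCY2C-med and 111 ± 18.7 cpm in GUCY2C-hi (log2 fold change -0.28, SE 0.20, edgeR adjusted p = 0.292), and without TMM its difference was near 0 and of the other sign. Creb3l3, an endoplasmic reticulum-bound factor known to act on apolipoprotein genes, was at 107 ± 105 in GUCY2C-hi and 545 ± 112 cpm in GUCY2C-med (adjusted p = 0.0133).

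**Figure D4:**
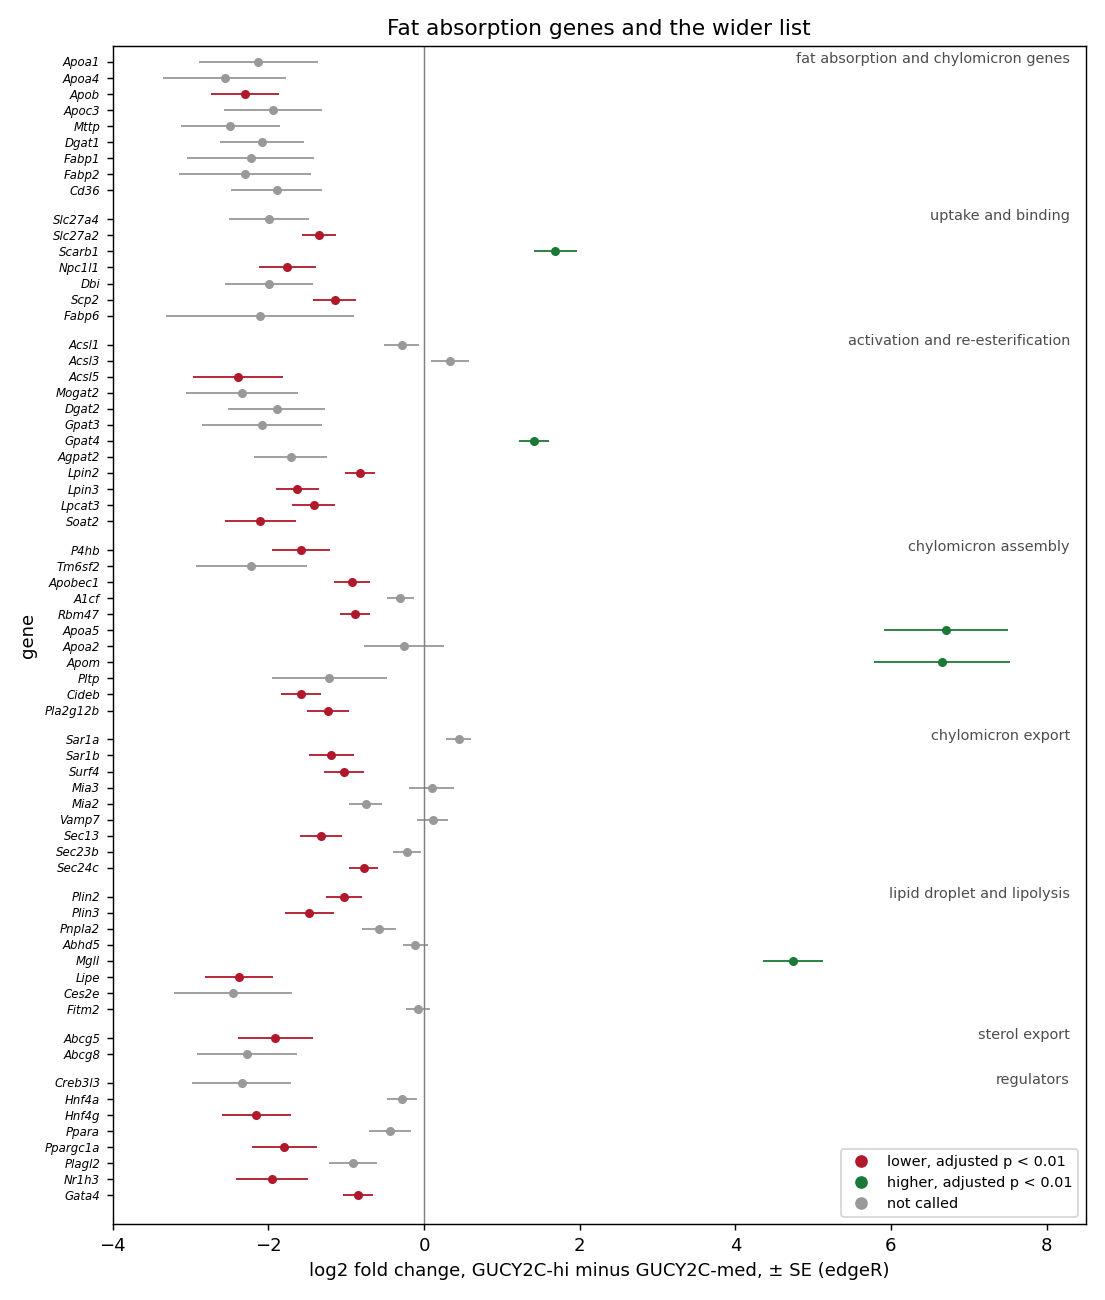
Log2 fold change from edgeR, GUCY2C-hi minus GUCY2C-med, for the 9 fat absorption genes at the top and the 57 tested genes of the wider list below. Bars are SEs derived from the F value of the test. Genes are ordered by role, with red and green for those past an adjusted p of 0.01. The 9 genes lie between -2.56 and -1.90 with wide bars, and Scarb1, Gpat4, Apoa5, Apom and Mgll stand to the right, where the fitted values of Apoa5 and Apom rest on few GUCY2C-med counts and depend on the prior count.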

How the data were processed

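Sorted cells of both groups gave RNA (RNeasy Plus Micro) for NEBNext Ultra II libraries, and reads were aligned with STAR and counted per gene by the sequencing provider. The deposited counts are whole, not normalised, with a gene length per row. The labels name mm9, but the coordinates of all 10 genes overlap RefSeq's on GRCm38.p6, and they are given on that build. The deposited files of the authors' own comparison, made with limma 3.40.6 and edgeR 3.26.8 per the labels, were not used.

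The 15703 genes above 0.5 cpm in 3 or more libraries were tested with edgeR 4.0.16 in R 4.3.3 (glmQLFit, TMM factors, group only, threshold 0.01), at a biological coefficient of variation of 0.458. That test gives no SE, so each SE printed is the absolute log2 fold change divided by the square root of its F value. limma 3.58.1 and DESeq2 1.42.0 served as alternatives. Counts on overlapping genes could be split, and floors cover counting error only.

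Labels state that 5 mice were sorted into both groups, so same-numbered libraries were taken as pairs. Their deviations from the group means correlated at -0.11, -0.22, 0.27, -0.12 and 0.061. Only for mouse 12 did the GUCY2C-hi library correlate best with the GUCY2C-med library of its own number. Values given within a mouse rest on this pairing. The named genes are the 10, those of the wider list that passed or show a role, and the 5 most alike. Genes and lists were chosen with earlier results of these data known.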

Additional observations from a re-analysis of the deposited data

How the results depend on the processing

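No fold change of the 9 genes turned its direction under any of the alternatives, and none was called higher. The number of the 9 that fell, 1 as reported, was 7 by limma-voom, 9 by DESeq2, 2 with the mouse as a block in edgeR, 9 with that block in limma-voom, 9 with limma's quality weights, 3 without a filter, 8 at an adjusted p under 0.05, and 1 to 6 with each library left out in turn. It was 9 without both libraries of mice 12 and 15, a choice made by level that supports nothing and is left out of the ranges. By the other calls 40 of the genes' fold changes passed where they had not, and 1, of Apob under the edgeR block, no longer passed. The number that fell in the wider list, 25, was 10 without TMM, 13 among genes with at least 10 counts in every library and 4 to 31 with each library left out. Over all genes, 1381 that fell became 2235 by DESeq2, 779 with the edgeR block, 2384 with quality weights, 560 without TMM, 2767 at an adjusted p under 0.05 and 512 to 1609 with each library left out. The number was 1797 by limma-voom, 1382 with the block in limma-voom and 1132 of 28618 genes without a filter. The 2186 that rose became 1294 with the edgeR block and 3367 at an adjusted p under 0.05. The cause of these shifts was not tested. Among 28 named genes of the wider list the only reversal was Hnf4a without TMM, with a log2 fold change of 0.0012. The mouse as a block changed no call of a named gene beyond those given. TMM left out moved the median over all genes by 0.29, and no filter moved it by 0.11.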
